A study of Mus musculus with 12 samples.

Results

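The response of mouse muscle to loss of the dystrophin gene is described here from 8 of the 12 libraries of an RNA sequencing study, the 4 labelled DMD-Null and the 4 labelled WT, chosen by their genotype labels. In DMD-Null mice, by their name, the whole Dmd gene is lost, and WT mice are wild type. How the gene was removed, the strain background and the sex are not in the labels. The muscle was in every case the tibialis anterior, made mainly of fast fibres, at the front of the lower leg, and the mice were naive and aged 6 months. The remaining 4 libraries are of mdx mice, a model that carries a premature stop codon in Dmd, and served to estimate the spread between replicates and as a second setting for DMD-Null. The mice were untreated, so no injury or exercise enters the comparison, and nothing beyond the replicate numbers says that libraries came from separate animals.

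Dystrophin ties the actin cytoskeleton of the muscle fibre to dystroglycan, the sarcoglycans and the laminin of the surrounding basement membrane. Fibres that lack it tear when they contract, and muscle of dystrophic mice passes through rounds of fibre death, clearing by macrophages, and rebuilding from satellite cells, the resident stem cells of muscle. Fibroblast-like cells between the fibres lay down matrix during each round, and scar can build up where rounds overlap.

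Counts per library totalled 60693078 to 64554184 in DMD-Null and 61145904 to 63073041 in WT. Levels are given as CPM, counts set to a common library total, scaled by TMM, a factor that lines up the bulk of genes between libraries. Genes were tested where FPKM, a level per length and depth, reached 1 in at least 4 libraries, which left 11376 of 30239. Within DMD-Null, log2 CPM correlated across genes at 0.967 to 0.986 between libraries. Within WT the correlation was 0.987 for WT 1 with WT 3 and 0.982 for WT 2 with WT 4, but 0.869 to 0.928 across these pairs. Ratios of each library to the average library were ranked against the GC content of genes, and Spearman's rho was 0.467 in DMD-Null 4, 0.665 in WT 1 and 0.614 in WT 3, and lay between -0.586 and -0.0889 in the other 9. The labels name no batch, so what set WT 1 and WT 3 apart was not tested, and calls are from all libraries, with list counts also given against WT 2 and WT 4 alone. A gene said to have risen or fallen, with no value for that second setting beside it, passed there too in the same direction. Transcripts of fast fibres were abundant in every library, as the labelled tissue requires: 8 fibre markers such as Ckm, Myh4 and Acta1 summed to 94090 to 129200 CPM in DMD-Null and 89930 to 206800 CPM in WT.

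Dmd (ENSMUSG00000045103, chromosome X from 82948870 to 85206141) was read first. It had 164, 71, 111 and 114 counts in DMD-Null 1 to 4, against 542, 3597, 412 and 2446 in WT 1 to 4. No DMD-Null library reached the lowest WT library, and WT 1 and WT 3 lay far below WT 2 and WT 4. The log2 fold change was -4.22 (SE 0.57, edgeR adjusted p = 0.00056) and -4.98 (SE 0.30, edgeR adjusted p = 3.27e-05) against WT 2 and WT 4 alone. An exact permutation test over the 8 libraries, two-sided, gave p = 0.0286, the smallest that 70 arrangements allow. The file holds counts per gene, so which exons the remaining DMD-Null reads came from cannot be told. Genes on both sides of Dmd kept their reads. Tab3, which starts 368 kb after Dmd and encodes an adaptor of the TAK1 kinase, had 194 to 499 counts in DMD-Null and 68 to 429 in WT, and Gk, which encodes glycerol kinase and lies 496 kb after Dmd, had 121 to 242 in DMD-Null and 91 to 134 in WT. Tmem47, 1853 kb before it, rose by 1.03 with all libraries (edgeR adjusted p = 0.038), a call that ended against WT 2 and WT 4 alone (0.81, edgeR adjusted p = 0.119). Tsga8, a testis gene inside Dmd, had 0 counts in all 8 libraries.

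Across all genes, muscle of DMD-Null mice held more transcript of regenerating fibres, matrix and macrophages and less of fatty acid oxidation and of mitochondrial respiration. With all libraries 1471 genes rose and 1770 fell at an adjusted p of 0.05 in edgeR's quasi-likelihood test, 12.9% and 15.6% of those tested (3241 in all, 28.5%). Changes are given throughout as log2 fold changes of DMD-Null over WT from that test. Of these, 753 (6.62% of all tested) rose and 752 (6.61%) fell at least 2-fold. Against WT 2 and WT 4 alone, 1370 rose (12%) and 1123 fell (9.87%). Both settings shared 943 rises (8.29%) and 770 falls (6.77%), and no gene called in both changed direction. The groups did not overlap in 2477 genes, 21.8% of those tested, of which 1324 (11.6%) were higher in DMD-Null and 1153 (10.1%) lower.

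GC content differed between the calls. The median GC of transcripts was 48.9% in genes that rose and 54.0% in genes that fell, against 50.5% over all tested genes. Among the calls made in both settings the medians were 50.4% in rises and 52.5% in falls, nearer to each other. With offsets that remove each library's GC trend, 1834 genes rose (16.1%) and 2545 fell (22.4%), 2901 of the 3241 calls were kept (25.5% of all tested), and none changed direction. The direction of rises and falls also rests on the scaling: with library totals alone the median gene moved up by 0.43 on the log2 scale, and 3313 genes rose (29.1%) and 575 fell (5.05%).

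**Figure D1:**
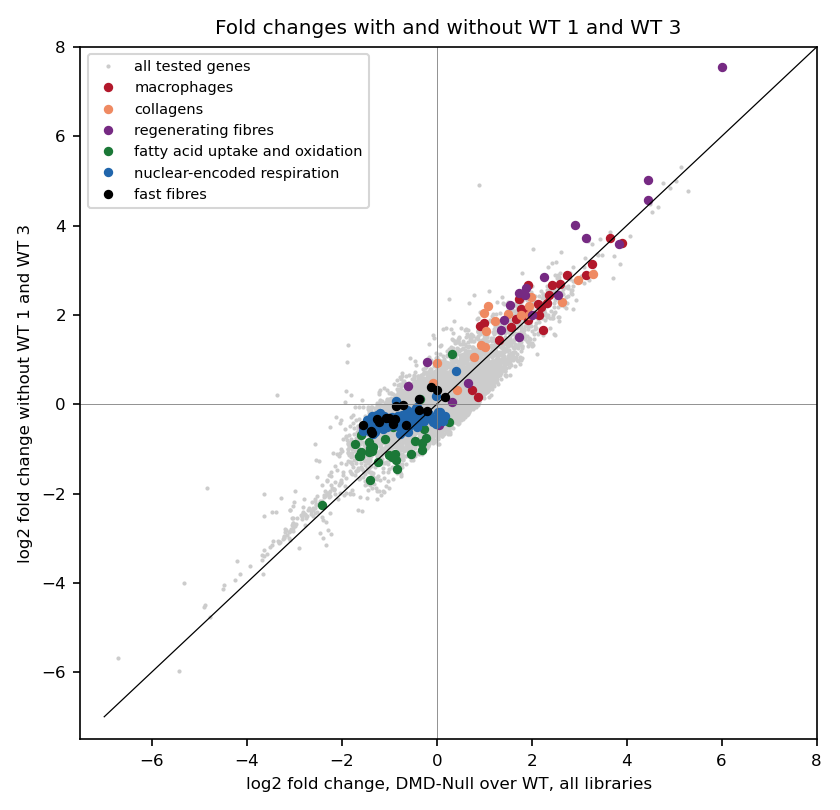
Log2 fold changes of DMD-Null over WT with all libraries (x axis) and without WT 1 and WT 3 (y axis), 1 point per tested gene, with the line of equal values drawn. Macrophage, collagen and regenerating fibre genes lie on the high side of both axes, while fast fibre genes lie near 0 on the y axis.

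Genes of newly formed fibres rose. Of 22 tested members of the list, 17 rose and 1 fell, against 12.9% and 15.6% of all tested genes, with a median log2 fold change of 1.80 against 0.014 over all tested genes. Against WT 2 and WT 4 alone, 17 rose and 0 fell with a median of 2.33, and 16 rose in both settings. Mymk encodes Myomaker, the membrane protein with which myoblasts fuse. It had 13.7, 19.8, 30.4 and 15.7 CPM in DMD-Null 1 to 4, against 0.319, 0.206, 0.758 and 0 CPM in WT 1 to 4. Every DMD-Null library lay far above every WT library. It rose by 6.01 (SE 0.69, edgeR adjusted p = 0.000143) and by 7.56 against WT 2 and WT 4 alone (edgeR adjusted p = 5.49e-05). Mymx, its partner in fusion, had 1.69, 3.18, 4.61 and 1.42 CPM in DMD-Null 1 to 4, against 0, 0.189, 0.276 and 0.0334 CPM in WT 1 to 4 and rose by 4.45 (edgeR adjusted p = 0.000968). Chrng, the fetal gamma subunit of the acetylcholine receptor, had 5.31, 9.61, 13.9 and 7.104 CPM in DMD-Null 1 to 4, against 0.4097, 0.395, 0.713 and 0.1505 CPM in WT 1 to 4. The groups were far apart in it, with a rise of 4.45 (SE 0.42, edgeR adjusted p = 4.84e-05). Myog, the transcription factor that starts the differentiation of myoblasts, had 18.2, 30.6, 36.7 and 20.9 CPM in DMD-Null 1 to 4, against 1.32, 2.53, 1.79 and 1.79 CPM in WT 1 to 4. The means were 26.6 ± 8.59 CPM in DMD-Null and 1.86 ± 0.498 CPM in WT (SD, n = 4 each), a 14.3-fold difference that passed in edgeR (adjusted p = 1.24e-05).

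Embryonic and fetal parts of the sarcomere moved with them. Myh3, the embryonic myosin heavy chain, had 45.7, 65.98, 84.7 and 83.8 CPM in DMD-Null 1 to 4, against 14.6, 3.28, 14.5 and 5.17 CPM in WT 1 to 4 and rose by 2.9. Myl4, an embryonic light chain, rose by 3.14, Actc1, cardiac actin, by 2.26, and Tnnt2, cardiac troponin T, by 1.74. Each of these 4 rises was larger against WT 2 and WT 4 alone, where Myh3 stood at 4.02. Myh8, the perinatal myosin, went against the list and fell by 1.55 with all libraries (edgeR adjusted p = 0.0262) and did not pass against WT 2 and WT 4 alone (-0.52, edgeR adjusted p = 0.35).

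Regulators of the MyoD family, to which Myog belongs, bind the E-box CANNTG, whose form CAGCTG is common in muscle promoters. The RefSeq promoters (GRCm38.p6, 250 bases before to 50 after the start) of Myog, Chrng and Chrna1, the adult and fetal alpha subunit gene that rose by 2.55, are shown because these genes rose together, with each E-box in capitals. Chrna1 was chosen after its values were seen.
Myog, chr1:134289754-134290053, plus strand: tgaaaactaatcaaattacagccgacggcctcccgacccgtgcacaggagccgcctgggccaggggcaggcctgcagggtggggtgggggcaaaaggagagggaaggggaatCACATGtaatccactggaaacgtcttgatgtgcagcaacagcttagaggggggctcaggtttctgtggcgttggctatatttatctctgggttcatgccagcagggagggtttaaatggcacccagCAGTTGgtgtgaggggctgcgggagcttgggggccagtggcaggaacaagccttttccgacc
Chrng, chr1:87205561-87205860, plus strand: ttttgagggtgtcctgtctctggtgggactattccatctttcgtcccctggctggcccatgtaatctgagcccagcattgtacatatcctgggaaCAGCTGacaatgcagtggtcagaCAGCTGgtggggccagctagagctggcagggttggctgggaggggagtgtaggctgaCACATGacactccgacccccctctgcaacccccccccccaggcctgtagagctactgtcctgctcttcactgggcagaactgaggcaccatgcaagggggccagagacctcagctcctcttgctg
Chrna1, chr2:73580289-73580588, minus strand: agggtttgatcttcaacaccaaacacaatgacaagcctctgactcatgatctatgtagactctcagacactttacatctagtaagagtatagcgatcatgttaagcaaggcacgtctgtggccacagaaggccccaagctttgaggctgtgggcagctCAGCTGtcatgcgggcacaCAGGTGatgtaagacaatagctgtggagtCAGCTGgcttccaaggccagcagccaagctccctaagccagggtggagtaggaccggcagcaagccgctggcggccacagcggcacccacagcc
Both motifs read the same class of sequence on either strand, and every CAGCTG is also a CANNTG. The Myog window held 2 E-boxes, CACATG and CAGTTG, and no CAGCTG. Chrng held 3 and Chrna1 held 3, of which 2 in each were CAGCTG. Over all 32851 promoters of the table, 72.3% held at least 1 CANNTG, 17.6% at least 3, 16.3% a CAGCTG and 1.9% at least 2 of that form. Of the 17 list members that rose, 12 had a promoter in the table, 10 of these held a CANNTG and 6 a CAGCTG. These counts are per gene, over all its promoters, of which Mest had 3. The shares above are per promoter, so the 2 are not directly comparable. These are matches of letters, and no binding was measured.

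**Figure D2:**
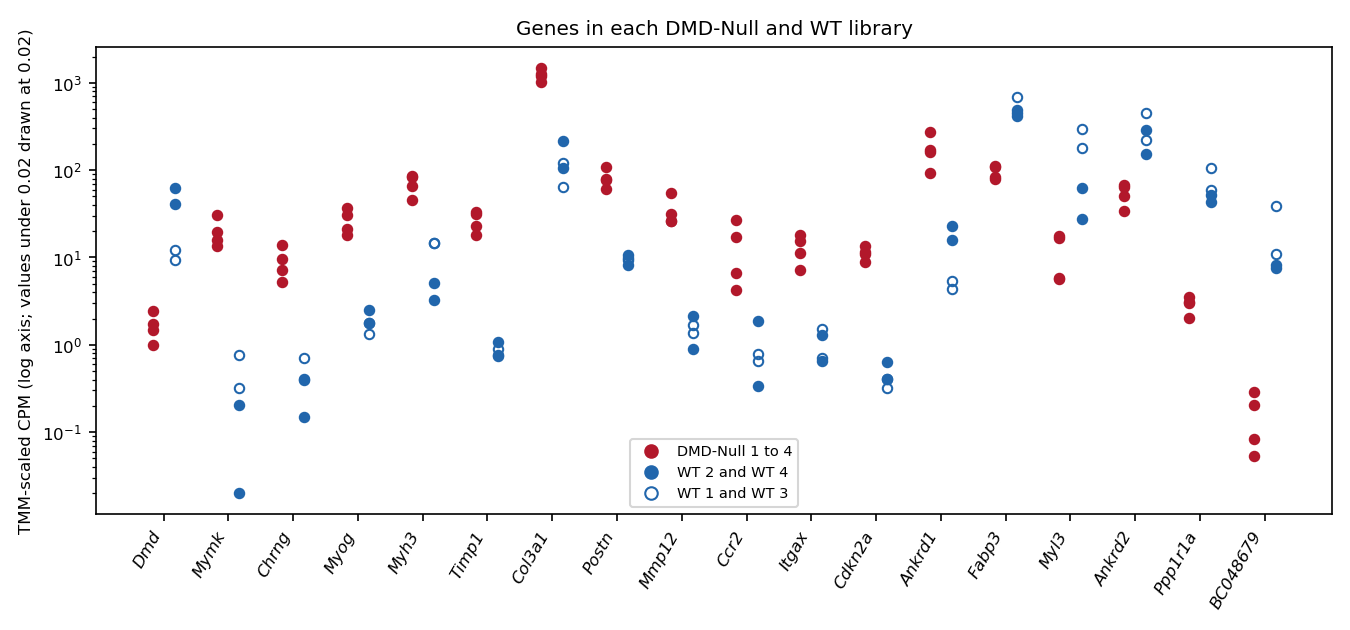
TMM-scaled CPM (log axis) of 18 genes in each DMD-Null and WT library, with WT 1 and WT 3 as open circles. Both pairs of WT libraries lay on the same side of DMD-Null for every gene shown, and for Dmd WT 2 and WT 4 lay higher than WT 1 and WT 3.

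In the dystrophin complex itself calls were about as frequent as over all genes. Of 15 tested members other than Dmd, 3 rose and 2 fell, against 12.9% and 15.6% of all tested genes, with a median of 0.35, and 2 rose and 1 fell against WT 2 and WT 4 alone. Utrn, the gene of utrophin, the closest relative of dystrophin, had 24.7, 23.9, 21.8 and 21.2 CPM in DMD-Null 1 to 4, against 14.4, 22.1, 13.4 and 22.1 CPM in WT 1 to 4. Its DMD-Null libraries lay around WT 2 and WT 4 and above WT 1 and WT 3, and its change did not pass in either setting (0.35, edgeR adjusted p = 0.155, and 0.02, edgeR adjusted p = 0.935). Nos1, the nitric oxide synthase that dystrophin anchors at the membrane through syntrophin, had 137, 90.3, 86.04 and 139.9 CPM in DMD-Null 1 to 4, against 275, 153, 281 and 176 CPM in WT 1 to 4. It fell by 0.97 (edgeR adjusted p = 0.0127), but against WT 2 and WT 4 alone the change was -0.57 (edgeR adjusted p = 0.0746) and did not pass. Of the beta-syntrophin genes Sntb2 rose by 1.04, and by 0.71 against WT 2 and WT 4 alone (edgeR adjusted p = 0.0357), while the rise of Sntb1 by 1.75 did not pass there (1.07, edgeR adjusted p = 0.0762). Lama2, the laminin chain that dystroglycan binds, rose by 0.60 and by 0.79 in that setting, and did not pass with GC-corrected offsets (edgeR adjusted p = 0.241). The dystroglycan gene Dag1 (0.35) and the 4 tested sarcoglycan genes, Sgca (-0.68) to Sgcb (0.78), did not pass.

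Genes of membrane repair rose in part. Of 14 tested members 7 rose and 0 fell, against 12.9% and 15.6% of all tested genes, and the same 7 rose against WT 2 and WT 4 alone. These were annexins that bind damaged membrane and their partners: Anxa1, with 44.4, 78.2, 64.1 and 61.3 CPM in DMD-Null 1 to 4, against 9.399, 17.8, 8.78 and 10.8 CPM in WT 1 to 4, rose by 2.41, and Anxa2 by 1.74. Myof, the myoferlin gene of regenerating fibres, rose by 1.5 (edgeR adjusted p = 0.000233). Dysf, the gene of dysferlin (-0.27), and Trim72, the gene of MG53 (-0.03), both fibre proteins that patch the membrane, did not pass. Annexins are also made by macrophages and fibroblasts, and the share of cells was not measured; in bulk tissue fewer or more cells of a type and less or more RNA per cell cannot be told apart.

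Satellite cell genes rose in part, and most did not pass. Of 18 tested members 7 rose and 0 fell, against 12.9% and 15.6% of all tested genes, and 11 did not pass. Against WT 2 and WT 4 alone 8 rose and 0 fell, and 6 rises were shared. The median log2 fold change was 0.478 with all libraries and 0.457 against WT 2 and WT 4 alone. Peg3, an imprinted zinc finger gene, had 119, 101, 76.1 and 84.97 CPM in DMD-Null 1 to 4, against 11.2, 14.4, 11.6 and 20.8 CPM in WT 1 to 4, and rose by 2.72 (SE 0.24, edgeR adjusted p = 2.89e-05). Cxcr4, a chemokine receptor also found on leukocytes, rose by 1.96, and Vcam1, an adhesion molecule, by 1.41. Pax7, the gene that defines satellite cells, was too low for the filter, with 168, 247, 256 and 274 counts in DMD-Null 1 to 4 and 203, 98, 146 and 136 counts in WT 1 to 4. Myf5, a myogenic factor of the same cells, had 63 to 140 counts in DMD-Null and 7 to 40 in WT, without overlap. Cell polarity genes, through which satellite cells divide asymmetrically and among which Mark2 is a partner of dystrophin in these cells, gave 0 rises and 0 falls among 10 tested members with all libraries. Mark2 was at -0.30 (edgeR adjusted p = 0.117). Scrib, the most highly expressed of them, had 33.2, 34.7, 35.6 and 45.5 CPM in DMD-Null 1 to 4, against 77.9, 34.6, 74.2 and 41.6 CPM in WT 1 to 4. Its DMD-Null values lay with WT 2 and WT 4, and only Dlg1 fell in that setting (-0.72, edgeR adjusted p = 0.00687).

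Extracellular matrix genes rose broadly. Among 18 tested collagens 13 rose and 0 fell, against 12.9% and 15.6% of all tested genes, with a median of 1.16, and 16 rose against WT 2 and WT 4 alone with a median of 2.0. Col3a1, a fibrillar collagen of loose connective tissue, had 1025, 1469, 1268 and 1183 CPM in DMD-Null 1 to 4, against 120.3, 217, 64.7 and 104.8 CPM in WT 1 to 4. Its means were 1236 ± 185 CPM in DMD-Null and 127 ± 64.4 CPM in WT (SD, n = 4 each), 9.76-fold apart (edgeR adjusted p = 5.29e-05). Col1a1 and Col1a2, the main scar collagens, rose by 1.98 and 1.95, and Col5a2, which nucleates fibrils, by 2.63. Col8a1, a short-chain collagen, rose by 2.97. Col4a2 and Col5a3 did not pass with all libraries (0.00 and 1.08) and rose against WT 2 and WT 4 alone (0.92 and 2.2). Col18a1 and Col22a1, a collagen of the myotendinous junction, passed in neither setting.

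Of 30 tested matricellular proteins and matrix enzymes, 23 rose and 0 fell, against 12.9% and 15.6% of all tested genes, with a median of 1.51. Of the 23, 20 also rose against WT 2 and WT 4 alone. Timp1, an inhibitor of matrix metalloproteinases, had 17.9, 31.7, 33.2 and 22.9 CPM in DMD-Null 1 to 4, against 0.774, 1.07, 0.896 and 0.752 CPM in WT 1 to 4. It rose by 4.92 (SE 0.39, edgeR adjusted p = 1.49e-05) and by 4.83 against WT 2 and WT 4 alone. Mmp12, macrophage elastase, had 25.8, 54.8, 26.1 and 31.4 CPM in DMD-Null 1 to 4, against 1.71, 2.15, 1.38 and 0.903 CPM in WT 1 to 4 and rose by 4.49. Postn, periostin of fibroblasts, had 76.8, 108, 79.3 and 60.8 CPM in DMD-Null 1 to 4, against 9.95, 10.7, 9.31 and 8.16 CPM in WT 1 to 4, with a rise of 3.09. Spp1, osteopontin, rose by 2.08, Lum, the proteoglycan lumican, by 2.55, and Fn1, fibronectin, by 1.71. Lox, which crosslinks collagen (2.03), Thbs1 (1.68) and Aspn (1.65) rose with all libraries and did not pass against WT 2 and WT 4 alone (1.32, 1.06 and 0.86). Dcn, decorin, passed in neither (1.2 and 0.58).

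Ligands and receptors of the TGF-beta family drive matrix synthesis. Of 17 tested members 2 rose and 0 fell, against 12.9% and 15.6% of all tested genes, and 4 rose and 1 fell against WT 2 and WT 4 alone. Fstl1, a secreted follistatin-like protein, had 109, 142, 124 and 103 CPM in DMD-Null 1 to 4, against 27.7, 46.2, 23.97 and 23.4 CPM in WT 1 to 4, and rose by 1.98. Tgfbr2, the type II receptor, rose by 1.11. The ligand gene Tgfb1 did not pass with all libraries (0.61, edgeR adjusted p = 0.225) and rose against WT 2 and WT 4 alone (1.67, edgeR adjusted p = 0.000267). Mstn, the gene of myostatin, which holds back muscle growth, also did not pass with all libraries (-1.26, edgeR adjusted p = 0.141) and was lower against WT 2 and WT 4 alone, where it passed (-2.12, edgeR adjusted p = 0.000249). The summed level of 14 markers of fibro-adipogenic progenitors, the fibroblast-like cells of muscle, was 1811 to 2735 CPM in DMD-Null and 844 to 1356 CPM in WT, without overlap. Of the 13 tested, 8 rose and 0 fell, against 12.9% and 15.6% of all tested genes, among them Pdgfra (1.65), Pdpn (2.76) and Mfap5 (1.85). Against WT 2 and WT 4 alone 11 rose and 0 fell, where 12% and 9.87% of all tested genes did. The part of these cells in the matrix result was not tested.

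Macrophage genes rose together. Of 27 tested members 23 rose and 0 fell, against 12.9% and 15.6% of all tested genes, with a median of 1.93. All 23 also rose against WT 2 and WT 4 alone, where the count was 25 and the median 2.12. Ccr2, the receptor that brings monocytes out of the blood, had 6.57, 17.4, 26.6 and 4.196 CPM in DMD-Null 1 to 4, against 0.66, 1.87, 0.781 and 0.334 CPM in WT 1 to 4. The spread within DMD-Null was wide, but no library overlapped with WT, and the rise was 3.9 (SE 0.63, edgeR adjusted p = 0.00122). Itgax, the CD11c integrin, had 7.26, 15.5, 11.3 and 18.1 CPM in DMD-Null 1 to 4, against 1.502, 1.29, 0.713 and 0.652 CPM in WT 1 to 4, with a rise of 3.65. Lgals3, galectin-3, had 86.8, 155, 110.3 and 154 CPM in DMD-Null 1 to 4, against 12.9, 17.1, 11.5 and 11.2 CPM in WT 1 to 4, with a rise of 3.26 (SE 0.23, edgeR adjusted p = 1.02e-05). Itgam, the CD11b integrin, rose by 3.13, Trem2, a lipid-sensing receptor of phagocytes, by 2.75, and Cd68, a lysosomal protein, by 2.42. Among genes of resident macrophages Mrc1 rose by 2.24, while Cd163 (0.74) and Lyve1 (0.87) passed in neither setting. DMD-Null 1 had the lowest Itgax, Lgals3 and Cd68 of its group, and the median of the list in that library was 0.38 above the mean of the 8 libraries on the log2 scale, against 0.82 to 1.35 in DMD-Null 2 to 4.

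Other arms of inflammation differed in how far they moved. Chemokines and cytokines gave 9 rises and 0 falls among 15 tested, against 12.9% and 15.6% of all tested genes. Against WT 2 and WT 4 alone they gave 8 and 0. Ccl7, a monocyte attractant, had 2.78, 9.65, 6.901 and 4.801 CPM in DMD-Null 1 to 4, against 0.364, 1.22, 0.804 and 0.435 CPM in WT 1 to 4. It rose by 3.09, and Ccl9 rose by 2.85. Complement gave 11 rises among 17, far above the share of all tested genes, and 2 falls, no more than that share. Against WT 2 and WT 4 alone it gave 11 and 0. The receptors C5ar1 and C3ar1, which myeloid cells carry, rose by 3.09 and 2.24, and C1qa, C1qb and C1qc, made by macrophages, by 1.54, 1.72 and 1.83. C3 and C4b fell, with log2 fold changes of -0.88 and -0.67 with all libraries and did not pass against WT 2 and WT 4 alone (-0.50 and -0.36). Interferon response genes gave 3 rises and 0 falls among 17, against 12.9% and 15.6% of all tested genes, and none of the 3 (Gbp3, Irgm1 and Irf9) rose in both settings. Isg15, a standard reporter of interferon, was at 0.01.

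Antigen presentation depended on the WT libraries. With all libraries 5 of 14 tested members rose and 0 fell, where 12.9% and 15.6% of all tested genes did. With WT 2 and WT 4 alone 13 rose and 0 fell, where 12% and 9.87% of all tested genes did. H2-Eb1, a class II chain, had 51.3, 65.8, 103 and 76.6 CPM in DMD-Null 1 to 4, against 31.7, 13.5, 26.1 and 8.896 CPM in WT 1 to 4. WT 1 and WT 3 lay above WT 2 and WT 4 but below every DMD-Null library, and the rise was 1.89 with all libraries and 2.7 against WT 2 and WT 4 alone. H2-Aa rose by 2.52. Cd74, the invariant chain of class II, did not pass with all libraries (1.09, edgeR adjusted p = 0.1) and rose by 2.54 in the other setting (edgeR adjusted p = 0.000131). Among 11 granulocyte and mast cell markers 5 were tested. Of these 2 rose, Csf3r (1.55) and Cpa3 (1.53), and 0 fell, against 12.9% and 15.6% of all tested genes. Cpa3 did not pass against WT 2 and WT 4 alone (1.21, edgeR adjusted p = 0.191) or with GC-corrected offsets (edgeR adjusted p = 0.0885). Of 13 lymphocyte markers 12 were under the filter. The other one, Ighm, the immunoglobulin heavy chain of IgM, had 13.8, 19.1, 30.4 and 14.3 CPM in DMD-Null 1 to 4, against 60.9, 32.7, 78.2 and 41.9 CPM in WT 1 to 4. It was lower in every DMD-Null library than in any WT library and fell in both settings, with a log2 fold change of -1.46 (adjusted p = 0.00732 in edgeR) and of -0.98 against WT 2 and WT 4 alone (adjusted p = 0.0418 in edgeR).

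Genes of growth and of growth arrest rose side by side. Of 12 tested imprinted growth genes 9 rose and 0 fell, against 12.9% and 15.6% of all tested genes, and 7 rose against WT 2 and WT 4 alone, where Slc38a4, an amino acid transporter, fell (-1.72, edgeR adjusted p = 0.000137). Igf2, a fetal growth factor, had 94.5, 87.5, 119.8 and 98.95 CPM in DMD-Null 1 to 4, against 27.1, 18.3, 21.01 and 18.8 CPM in WT 1 to 4, and rose by 2.23 (SE 0.24, edgeR adjusted p = 9.34e-05). H19, the noncoding RNA beside it, rose by 1.66, and Mest by 2.01. Of 13 tested cell cycle genes 7 rose and 0 fell, and 7 and 1 against WT 2 and WT 4 alone, of which 6 rises were shared: Rrm2, a subunit of ribonucleotide reductase, had 4.999, 8.68, 8.98 and 5.44 CPM in DMD-Null 1 to 4, against 0.478, 1.46, 1.08 and 0.886 CPM in WT 1 to 4 and rose by 2.84, and Ccnb2, a mitotic cyclin, rose by 1.81. Another 7 of that list, among them Mki67 and Top2a, were under the filter.

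Cdkn2a, which encodes the cell cycle inhibitors p16 and p19Arf, stood out among 18 tested senescence and p53 genes. Of the 18, 6 rose and 1 fell with all libraries, against 12.9% and 15.6% of all tested genes. Against WT 2 and WT 4 alone 6 rose and 0 fell. Cdkn2a had 8.92, 11.03, 11.6 and 13.5 CPM in DMD-Null 1 to 4, against 0.4097, 0.636, 0.322 and 0.401 CPM in WT 1 to 4. Its means were 11.3 ± 1.88 CPM in DMD-Null and 0.442 ± 0.135 CPM in WT (SD, n = 4 each), with a rise of 4.65 (SE 0.29, edgeR adjusted p = 7.07e-06) and of 4.41 against WT 2 and WT 4 alone. Cdkn1a, which encodes p21, rose by 1.54 and by 1.55 there. Gadd45a, a stress gene, rose by 1.89, while Trp53 (-0.12) and Mdm2 (0.22), its target, did not pass.

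Fatty acid uptake and oxidation fell, whichever WT libraries were used. Of 30 tested members 0 rose and 20 fell, against 12.9% and 15.6% of all tested genes, with a median of -0.97. With library totals alone 16 fell, against 5.05% of all tested genes in that setting. Against WT 2 and WT 4 alone 26 fell, the 20 among them, with a median of -1.0. Fabp3, which carries fatty acids through the cytoplasm, had 112, 79.03, 83.2 and 109 CPM in DMD-Null 1 to 4, against 455, 482, 695 and 418 CPM in WT 1 to 4. The highest DMD-Null library was far under the lowest WT library, and the log2 fold change was -2.42 (SE 0.19, edgeR adjusted p = 1.39e-05). Acadvl, the first dehydrogenase for long chains, had 298, 247, 259 and 360.1 CPM in DMD-Null 1 to 4, against 1051, 614, 1301 and 663 CPM in WT 1 to 4 and fell by 1.64. Etfb, which passes electrons on to the respiratory chain, had 112, 98.4, 102 and 136 CPM in DMD-Null 1 to 4, against 491, 189, 572 and 216 CPM in WT 1 to 4. Its log2 fold change of -1.71 was -0.89 against WT 2 and WT 4 alone, where it passed again (edgeR adjusted p = 0.00107). Cpt1b, the gate of fatty acids into mitochondria, fell in both settings (-1.09 and -0.77), as did Esrra, a nuclear receptor that controls these genes (-0.93 and -0.52). Its coactivator Ppargc1a passed in neither (0.27 and -0.41).

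Nuclear genes of the respiratory chain also fell, but by amounts that rested on WT 1 and WT 3. Of 80 tested members 57 fell and 0 rose with all libraries, against 15.6% and 12.9% of all tested genes, with a median of -0.70. Against WT 2 and WT 4 alone 33 fell and 1 rose with a median of -0.36, and 31 fell in both settings. With library totals alone 22 fell and 2 rose, against 5.05% and 29.1% of all tested genes in that setting. The median there was -0.24, against 0.43 over all tested genes. Atp5k, a subunit of ATP synthase, had 28.4, 22.01, 22.3 and 29.5 CPM in DMD-Null 1 to 4, against 106, 37.2, 118 and 38.98 CPM in WT 1 to 4. WT 2 and WT 4 exceeded DMD-Null by far less than WT 1 and WT 3 did, and the log2 fold change of -1.55 was -0.61 against WT 2 and WT 4 alone (edgeR adjusted p = 0.00784). Uqcrc1, a core protein of complex III, fell by 1.47 and was at -0.46 in that setting, where it did not pass (edgeR adjusted p = 0.0642), and Ndufv3, of complex I, behaved likewise at -1.46 and -0.36 (edgeR adjusted p = 0.181). For transcripts of the mitochondrial genome the order was the opposite. With all libraries 2 of 13 fell, against 15.6% of all tested genes, with a median of -0.32. Against WT 2 and WT 4 alone 10 of 13 fell, where 9.87% of all tested genes did, with a median of -0.81. With GC-corrected offsets 11 fell, against 22.4% of all tested genes in that setting, with a median of -0.852. None fell with library totals alone, where their median was 0.03, against 0.43 over all tested genes. WT 1 and WT 3 had the lowest share of mitochondrial counts of all libraries, 4.96% and 6.57%. The 2 that fell with all libraries were mt-Nd6 (-0.81) and mt-Nd3, which encode subunits of complex I. mt-Nd3 had 603, 425, 481 and 424 CPM in DMD-Null 1 to 4, against 545, 1087, 755 and 849 CPM in WT 1 to 4.

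Of the citric acid cycle 9 of 18 members fell and 0 rose with all libraries, against 15.6% and 12.9% of all tested genes. Against WT 2 and WT 4 alone 6 fell, where 9.87% of all tested genes did, and 5 of these were shared. The largest falls, in Idh2 (-0.91) and Mdh2 (-0.83), mitochondrial dehydrogenases, did not pass against WT 2 and WT 4 alone (-0.27, edgeR adjusted p = 0.255, and -0.34, edgeR adjusted p = 0.0806). Cs, citrate synthase, fell in both settings (-0.51 and -0.40), as did Suclg1 (-0.72 and -0.62). With library totals alone none of the 18 passed, and their median was -0.01, against 0.43 over all tested genes in that setting. Glycolysis gave 1 rise and 6 falls among 23, against 12.9% and 15.6% of all tested genes. With library totals alone it gave 6 rises and 4 falls, against 29.1% and 5.05% of all tested genes. Against WT 2 and WT 4 alone it gave 4 rises and 4 falls, and its median was -0.01, against -0.42 with all libraries. Fbp2, the muscle fructose bisphosphatase that runs the pathway backwards, had 21.8, 22.8, 19.9 and 24.01 CPM in DMD-Null 1 to 4, against 76.1, 60.7, 84.3 and 69.1 CPM in WT 1 to 4 and fell by 1.71. Ldhb, the heart-type lactate dehydrogenase, fell by 1.8, whereas Ldha, the muscle type, was at 0.12 and did not pass. Of 12 glycogen genes 3 fell and 0 rose, against 15.6% and 12.9% of all tested genes, and 4 fell against WT 2 and WT 4 alone, of which 1 was shared. Ppp1r1a, which encodes inhibitor 1 of protein phosphatase 1, had 3.57, 3.01, 2.02 and 3.11 CPM in DMD-Null 1 to 4, against 59.2, 43.8, 106 and 51.3 CPM in WT 1 to 4, a log2 fold change of -4.47 ± 0.30 (SE, with an adjusted p of 7.07e-06 in edgeR) that was -4.05 against WT 2 and WT 4 alone. Pygm, muscle glycogen phosphorylase, fell by 1.05 with all libraries and did not pass in that setting (-0.36).

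**Figure D3:**
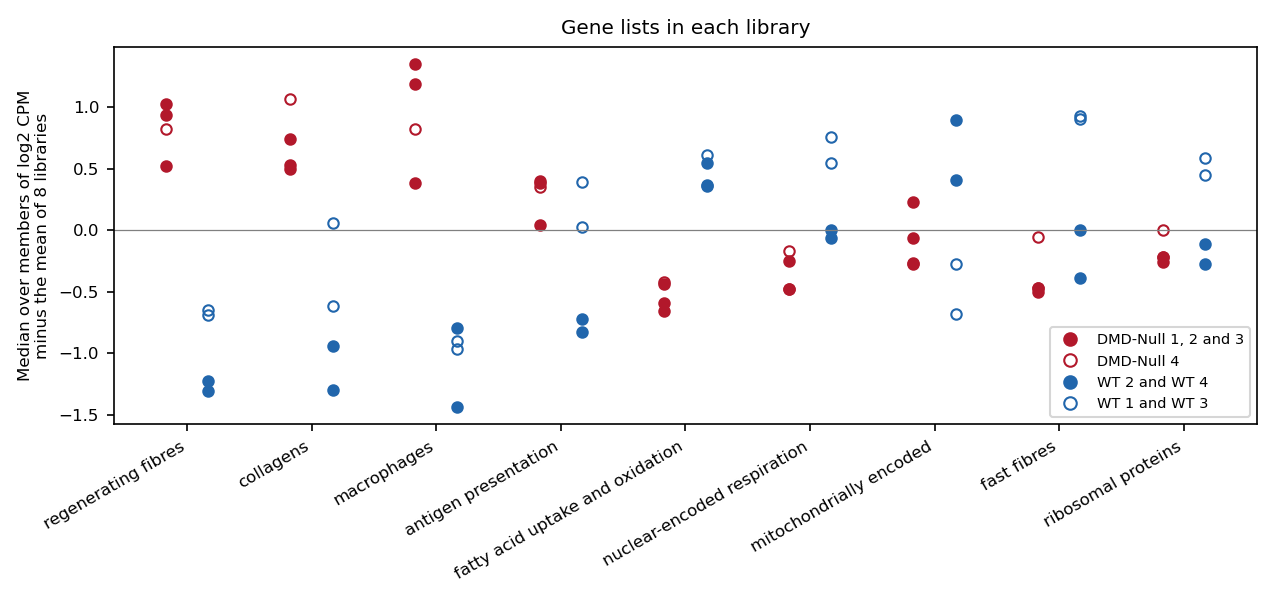
Median over the tested members of a list of log2 CPM minus the gene's mean over the 8 libraries, 1 point per library, with WT 1, WT 3 and DMD-Null 4 as open circles. Macrophage and fatty acid genes separate DMD-Null from all 4 WT libraries, while for fast fibres and ribosomal proteins WT 2 and WT 4 lie near DMD-Null and WT 1 and WT 3 lie above.

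Calls on the contractile apparatus depended on the WT libraries. Of 18 tested fast fibre genes 0 rose and 10 fell with all libraries, against 12.9% and 15.6% of all tested genes, with a median of -0.87. Against WT 2 and WT 4 alone only Myoz1, a Z-disc protein, fell (-0.45, edgeR adjusted p = 0.0221), and the median was -0.30. With library totals alone 2 rose and 5 fell, against 29.1% and 5.05% of all tested genes in that setting. With GC-corrected offsets 0 rose and 11 fell, against 16.1% and 22.4% of all tested genes in that setting. The median there was -0.594. Myh4, the myosin of the fastest fibres, had 15613, 17942, 19617 and 29681 CPM in DMD-Null 1 to 4, against 88024, 21209, 62470.0 and 42331 CPM in WT 1 to 4. DMD-Null 4 exceeded WT 2, so the groups overlapped, and the change of -1.37 (edgeR adjusted p = 0.0229) was -0.65 against WT 2 and WT 4 alone (edgeR adjusted p = 0.192). Myh1, the next fastest myosin, had 8613, 5026, 5437 and 13269 CPM in DMD-Null 1 to 4, against 37199, 8459, 36086 and 13436 CPM in WT 1 to 4. Myh1 overlapped too, with DMD-Null 1 and DMD-Null 4 above WT 2. Its log2 fold change was -1.56 and, where it did not pass, -0.47, and Smtnl1, a smoothelin-like protein, was at -1.38 and -0.60 (edgeR adjusted p = 0.133). Ckm, muscle creatine kinase, fell by 1.26 with all libraries and was at -0.33 against WT 2 and WT 4 alone (edgeR adjusted p = 0.257). With GC-corrected offsets Myh4, Myh1, Smtnl1 and Ckm fell, with log2 fold changes of -1.227, -1.42, -1.085 and -1.02. A fall of fast fibre transcripts and the difference between the WT pairs cannot be told apart in these libraries.

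Slow and oxidative fibre genes went both ways. Of 15 tested members 2 rose and 4 fell with all libraries, against 12.9% and 15.6% of all tested genes, and 6 rose and 2 fell against WT 2 and WT 4 alone. Myl3, a light chain of slow fibres, had 17.5, 5.64, 5.796 and 16.6 CPM in DMD-Null 1 to 4, against 297, 62.6, 178 and 27.4 CPM in WT 1 to 4, and fell, with log2 fold changes of -3.64 and -2.01 in the 2 settings. Tnni1, slow troponin I, went up in both: it had 35.2, 28.4, 41.2 and 47.4 CPM in DMD-Null 1 to 4, against 21.6, 3.49, 9.26 and 3.23 CPM in WT 1 to 4, a rise of 2.02 (edgeR adjusted p = 0.0166) and of 3.47 against WT 2 and WT 4 alone. Mb, myoglobin, fell, with log2 fold changes of -1.79 and -1.0. Myh2, the myosin of fast oxidative fibres, fell by 2.54 with all libraries and did not pass against WT 2 and WT 4 alone (-1.24, edgeR adjusted p = 0.0793), and Myh7, the slow myosin, passed in neither, at -1.86 and 1.33.

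Among scaffold and mechanical stress genes 4 of 20 rose and 7 fell with all libraries, against 12.9% and 15.6% of all tested genes, and 3 and 2 against WT 2 and WT 4 alone. Ankrd1, a stretch-responsive protein of the sarcomere and nucleus, had 159, 169.7, 277 and 93.8 CPM in DMD-Null 1 to 4, against 4.32, 15.8, 5.42 and 22.7 CPM in WT 1 to 4 and rose by 3.85 (SE 0.56, edgeR adjusted p = 0.000643). Its relative Ankrd2 moved the opposite way, with 64.4, 33.98, 50.96 and 67.8 CPM in DMD-Null 1 to 4, against 454, 153, 219 and 289 CPM in WT 1 to 4 and a log2 fold change of -2.36 ± 0.33 (SE, with an adjusted p of 0.000554 in edgeR). Both held against WT 2 and WT 4 alone, at 3.15 and -2.06. Csrp3, the muscle LIM protein, fell, with log2 fold changes of -1.46 and -1.49.

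Of 16 neuromuscular junction and denervation genes 5 rose and 1 fell, against 12.9% and 15.6% of all tested genes, and the same 6 calls were made against WT 2 and WT 4 alone, among 7 rises and 1 fall there. Besides Chrng and Chrna1, Runx1, a transcription factor of denervated muscle, had 14.3, 17.8, 19.6 and 12 CPM in DMD-Null 1 to 4, against 2.09, 3.44, 1.38 and 0.8695 CPM in WT 1 to 4 and rose by 3.03. Scn4a, the sodium channel of adult fibres, fell, with log2 fold changes of -0.76 and -0.56. Calcium handling genes gave 2 rises and 4 falls among 21, near the shares of 12.9% and 15.6% over all tested genes, and 3 and 4 against WT 2 and WT 4 alone. Sln, sarcolipin, which uncouples the calcium pump, had 5.94, 7.03, 8.99 and 8.89 CPM in DMD-Null 1 to 4, against 0.797, 0.4295, 0.736 and 1.02 CPM in WT 1 to 4 and rose by 3.37 in either setting. Atp2a2, the slow calcium pump, rose by 0.88, while Atp2a1, the fast pump, did not pass (-0.86). Ryr1, the release channel, fell by 1.31 with all libraries and was at -0.58 against WT 2 and WT 4 alone (edgeR adjusted p = 0.212).

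Stress and protein turnover genes differed between lists. Of 20 unfolded protein response genes 12 rose and 2 fell, against 12.9% and 15.6% of all tested genes, and 8 rises and 1 fall were shared with the setting of WT 2 and WT 4 alone. Those that rose fold proteins for secretion in the endoplasmic reticulum, such as Sdf2l1 (1.45), Pdia4 (1.38) and Hsp90b1 (0.83). The 2 that fell, Ddit3 (-1.58) and Atf5 (-1.31), are transcription factors of the integrated stress response, and of these Ddit3 did not pass against WT 2 and WT 4 alone (-0.74, edgeR adjusted p = 0.064). Heat shock genes gave 0 rises and 5 falls among 17, against 12.9% and 15.6% of all tested genes. Against WT 2 and WT 4 alone they gave 0 and 4, where 12% and 9.87% of all tested genes were called. Hsph1 and Hspe1 fell in both settings. With library totals alone 1 rose and 1 fell, against 29.1% and 5.05% of all tested genes in that setting. Hspb6, a small heat shock protein, fell by 1.06 and did not pass against WT 2 and WT 4 alone (-0.66, edgeR adjusted p = 0.0626). Of 19 atrophy and autophagy genes 1 rose and 3 fell, no more than about the shares of 12.9% and 15.6% over all tested genes, the protease gene Ctsl up (1.13) and Fbxo31 (-1.09), Fbxo40 (-0.93) and Capn3 (-0.52) down, all of them in both settings. The muscle ubiquitin ligases Fbxo32 (-0.23) and Trim63 (0.18) did not pass. Of 31 proteasome subunits 1 was called, Psma5 (0.32), against 28.5% of all tested genes in either direction. None was called against WT 2 and WT 4 alone (Psma5 at 0.25, edgeR adjusted p = 0.0812). Psma5 did not pass with GC-corrected offsets either (edgeR adjusted p = 0.0748). Amd1, which makes the aminopropyl donor for polyamines, had 165, 184, 257 and 116 CPM in DMD-Null 1 to 4, against 239, 726, 262 and 779 CPM in WT 1 to 4 and fell, with log2 fold changes of -1.47 and -2.09. Its near-identical copy Amd2 fell by 1.62, and reads may be split between them. Smox, which breaks polyamines down, fell by 1.19 and Sat1, which acetylates them, rose by 1.0.

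Calls on ribosomal protein genes were near or under the shares over all genes, except for falls with GC-corrected offsets. Of 76 tested 1 rose and 13 fell with all libraries, against 12.9% and 15.6% of all tested genes, with a median of -0.38. Against WT 2 and WT 4 alone 2 rose and 0 fell, with a median of -0.04. With library totals alone 18 rose and 1 fell, against 29.1% and 5.05% of all tested genes in that setting. With GC-corrected offsets 1 rose and 32 fell, against 16.1% and 22.4% of all tested genes in that setting. The median there was -0.385. Rpl36 had 57.1, 51.7, 49.4 and 67.5 CPM in DMD-Null 1 to 4, against 225, 60.3, 235 and 78.6 CPM in WT 1 to 4, so WT 1 and WT 3 alone lay far above DMD-Null. Its log2 fold change of -1.41 was -0.33 against WT 2 and WT 4 alone, and that of Rplp2 was -1.06 and -0.11, and neither passed there. Clock, immediate-early and Notch genes gave 1, 3 and 3 rises and 1, 2 and 0 falls among 15 tested members each, against 12.9% and 15.6% of all tested genes, and 0, 1 and 2 rises and 1, 3 and 0 falls against WT 2 and WT 4 alone. Nr1d1, a clock repressor, fell, with log2 fold changes of -1.89 and -0.80, Myc rose by 1.25 and 0.95, and Rbpj, the DNA-binding partner of Notch, by 1.22 and 0.65. The clock gene Bhlhe40 (0.51), the immediate-early gene Nr4a3 (1.05) and Lfng (0.88), which modifies Notch, rose with all libraries and did not pass against WT 2 and WT 4 alone (0.24, 1.03 and 0.64).

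**Figure D4:**
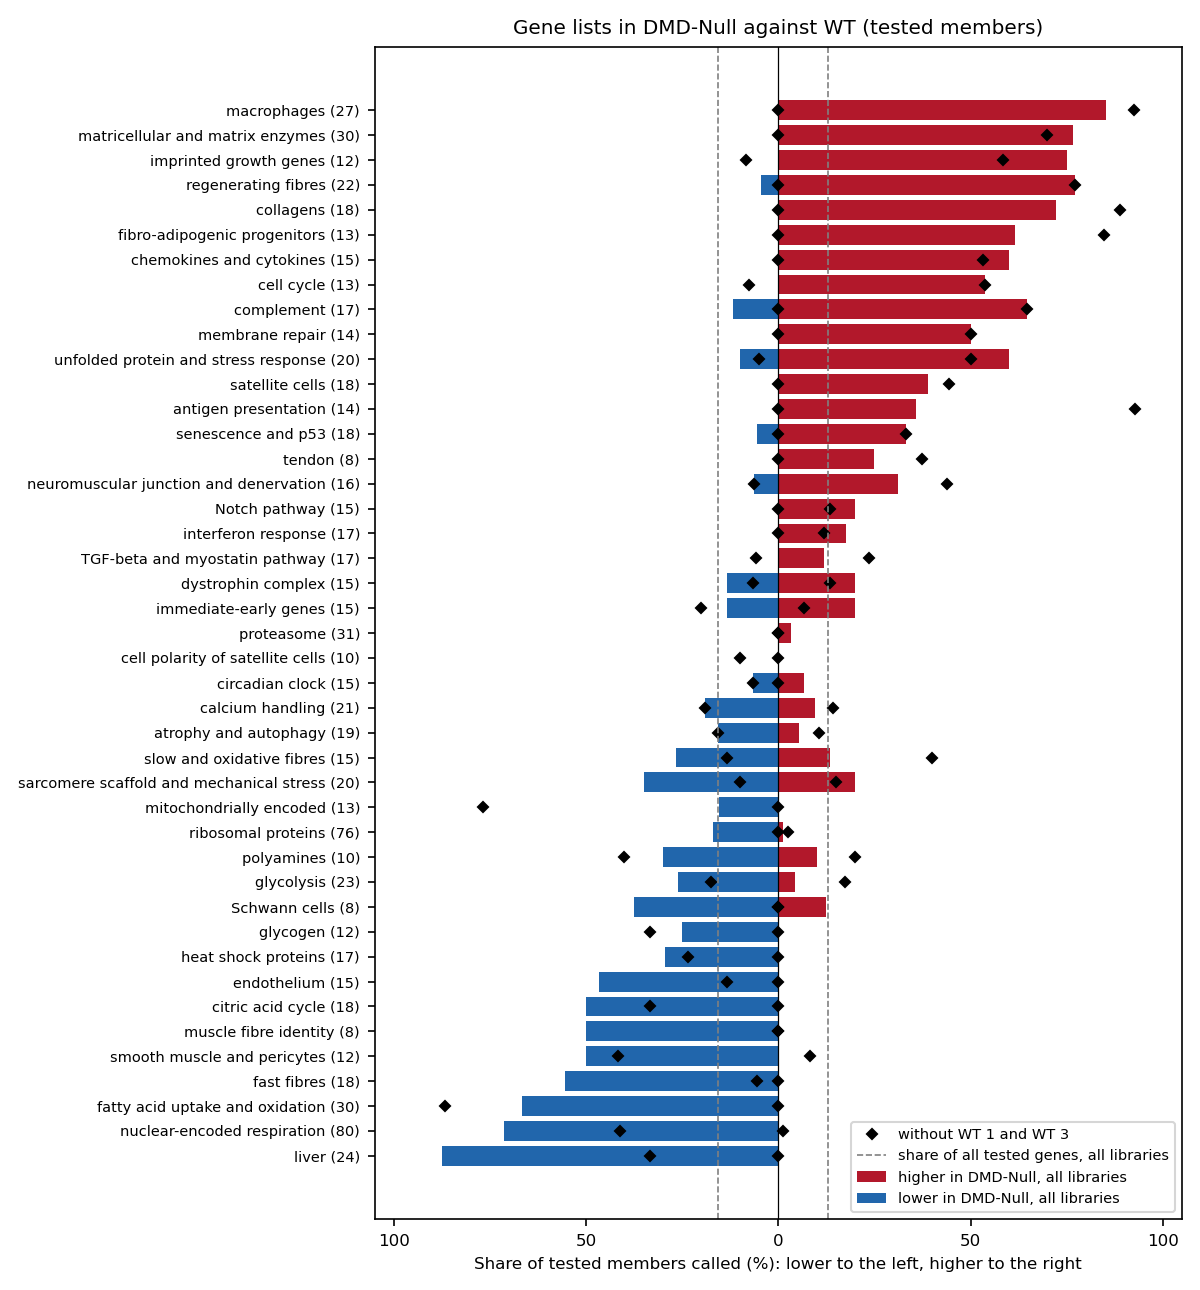
Share of the tested members of each list (their number in brackets) that rose (right) or fell (left) in DMD-Null with all libraries, as bars, and without WT 1 and WT 3, as diamonds. Dashed lines mark the shares over all tested genes, 12.9% and 15.6%; macrophage, matrix and regenerating fibre bars and diamonds lie far beyond the line, and the fast fibre diamond lies inside it.

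Beyond the lists, the largest changes were sought where mean FPKM reached 5 in DMD-Null or WT, the call held in both settings and the groups did not overlap, which left 373 genes that were higher and 489 that were lower. The 6 largest rises were Mymk, Timp1, Gm48395, Cdkn2a, Ankrd1 and Myog. Gm48395, a predicted gene, had 8.85, 6.23, 8.26 and 7.86 CPM in DMD-Null 1 to 4, against 0.4097, 0.498, 0.253 and 0 CPM in WT 1 to 4. The 6 largest falls were BC048679, 1700001O22Rik, 0610040J01Rik, Ppp1r1a, Dusp26 and Ces1d. BC048679 had 0.206, 0.0837, 0.0539 and 0.288 CPM in DMD-Null 1 to 4, against 10.9, 7.66, 38.9 and 8.26 CPM in WT 1 to 4, a log2 fold change of -6.7 ± 0.72 (SE, with an adjusted p of 9.5e-05 in edgeR). It was nearly lost in DMD-Null, and WT 3 held several times the level of the other WT libraries. 1700001O22Rik had 0.603, 1.14, 0.984 and 1.29 CPM in DMD-Null 1 to 4, against 26.4, 19.1, 47.6 and 26.8 CPM in WT 1 to 4, a log2 fold change of -4.9 ± 0.35 (SE, with an adjusted p of 1.06e-05 in edgeR). 0610040J01Rik fell by 4.77. Dusp26, a phosphatase that acts on MAP kinases, had 7.72, 5.58, 5.92 and 8.3 CPM in DMD-Null 1 to 4, against 202, 67.2, 153 and 86.8 CPM in WT 1 to 4, with log2 fold changes of -4.21, and -3.52 against WT 2 and WT 4 alone. Ces1d, a carboxylesterase that acts on lipids, fell, with log2 fold changes of -3.69 and -3.38.

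Transcripts of other organs also differed between the groups. The summed level of 25 liver genes, without TMM scaling, was 325, 56.0, 251 and 245 CPM in DMD-Null 1 to 4, against 1021, 938, 1002 and 922 CPM in WT 1 to 4. Of the 24 tested 21 fell and 0 rose, against 15.6% and 12.9% of all tested genes, with a median of -2.87, and 8 fell against WT 2 and WT 4 alone with a median of -2.51. Mup3, a urinary protein made in liver, had 2.98, 0, 2.24 and 3.68 CPM in DMD-Null 1 to 4, against 32.1, 22.03, 33.4 and 23.7 CPM in WT 1 to 4, and Cps1, the first enzyme of the urea cycle, fell by 3.58. These transcripts are made mainly in liver, and their source in these libraries was not tested. Erythroid markers summed to 198 to 345 CPM in DMD-Null and 595 to 778 CPM in WT. Of 6 tested 5 fell, against 15.6% of all tested genes. Against WT 2 and WT 4 alone 2 fell, Hbb-bs and Hbb-bt, where 9.87% of all tested genes did. Hba-a1 (-1.87) and Hba-a2 (-1.91), whose reads may be split between near-identical copies, did not pass there (-1.28, edgeR adjusted p = 0.0565, and -1.35, edgeR adjusted p = 0.0773). Lung markers summed to 4.44 to 7.58 CPM in DMD-Null and 5.87 to 7.88 CPM in WT. Of the 4 tested 1 rose and 2 fell in both settings, against 12.9% and 15.6% of all tested genes with all libraries. Napsa, a protease also made outside the lung, rose by 2.33. Sftpc, a surfactant gene, fell, with a log2 fold change of -5.42 (edgeR adjusted p = 0.00963). That fall rests on few counts, 0 in every DMD-Null library and 4, 4, 0 and 9 in WT 1 to 4. Sftpc passed the filter only through the mdx libraries.

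Among cells that live in muscle, endothelial markers gave 7 falls of 15 with all libraries, against 15.6% of all tested genes. Against WT 2 and WT 4 alone 2 fell, of which 1 was shared, near the 9.87% of all tested genes. Their sum overlapped, at 986 to 1150 CPM in DMD-Null and 1051 to 1405 CPM in WT. Pecam1 (0.13) and Cdh5 (0.22), which define the endothelium, did not pass. The largest falls, in Egfl7 (-1.66) and Vwf (-1.5), did not pass against WT 2 and WT 4 alone (-0.49 and -0.60). Smooth muscle markers gave 6 falls of 12, against 15.6% of all tested genes, and 5 of them fell in both settings. Myh11, smooth muscle myosin, had 50.96, 28.1, 39.6 and 82.8 CPM in DMD-Null 1 to 4, against 167, 77.1, 162 and 146 CPM in WT 1 to 4. It fell by 1.46, and Cnn1, calponin, fell by 1.34. Schwann cell markers gave 1 rise and 3 falls among 8 with all libraries, against 12.9% and 15.6% of all tested genes. None was called against WT 2 and WT 4 alone, where Prx (-1.42 with all libraries) was at -0.64. Tendon sums overlapped, at 319 to 612 CPM in DMD-Null and 102 to 416 CPM in WT. Of 8 tested tendon markers 2 rose, Thbs4 (1.52) and Prg4 (1.42), and 0 fell, against 12.9% and 15.6% of all tested genes. Adipocyte sums overlapped, at 406 to 467 CPM in DMD-Null and 448 to 674 CPM in WT. Adipoq and Plin1, which define these cells, were under the filter, while Dgat2, which makes triglycerides in several cell types, fell, with log2 fold changes of -2.22 and -1.8. Lipe, the hormone-sensitive lipase gene, fell, with log2 fold changes of -1.43 and -0.77.

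**Figure D5:**
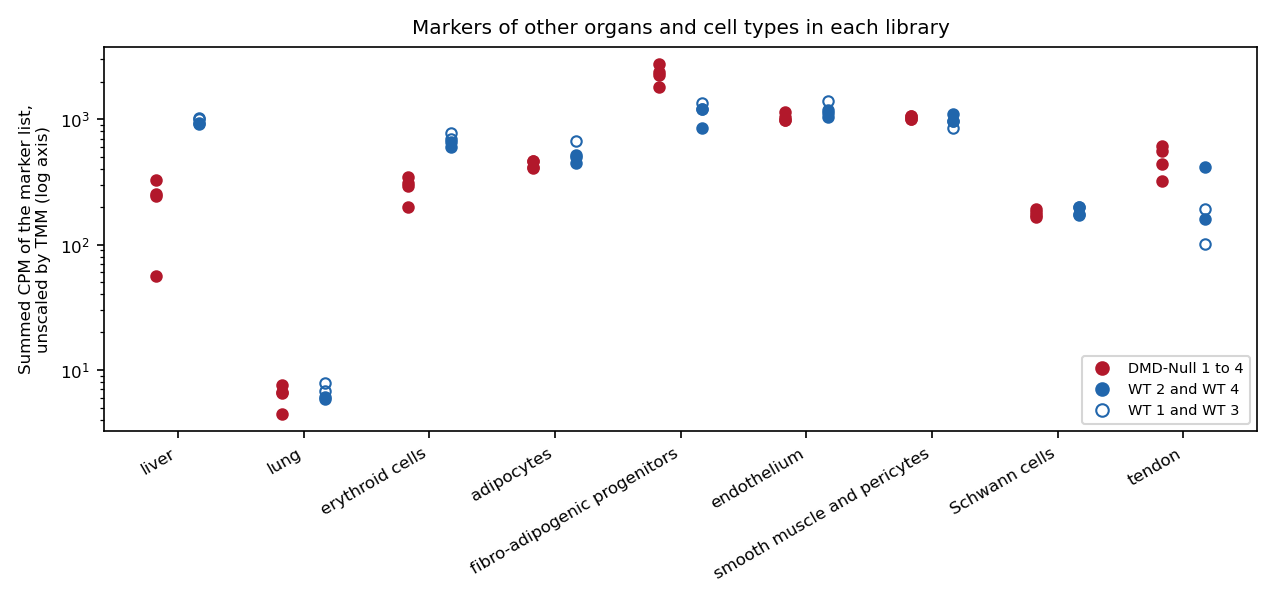
Summed CPM without TMM scaling (log axis) of marker lists of other organs and cell types, 1 point per library, with WT 1 and WT 3 as open circles. Liver and erythroid sums are lower in all 4 DMD-Null libraries and progenitor sums higher, without overlap, while endothelial, smooth muscle and Schwann cell sums overlap.

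The mdx libraries place DMD-Null beside a mutant that still carries the gene. Between DMD-Null and mdx, 2 of 11376 genes passed in edgeR's quasi-likelihood test (0.0176%), 120 had an unadjusted p under 0.05 (1.05%), and DESeq2 called 6 (0.0528%). Both genes called in edgeR with all libraries, Sftpc and Scgb1a1, are of lung. They passed the filter only through the mdx libraries, where they are high. Mean FPKM in DMD-Null and WT was 0 and 0.0487 for Sftpc and 0.0538 and 0.147 for Scgb1a1. Dmd itself, fitted apart because it was under the filter, had 0.9903 to 2.41 CPM in DMD-Null and 10.3 to 17.4 CPM in mdx, without overlap. Its log2 fold change of -3.02 did not pass with all libraries (edgeR adjusted p = 0.388) but passed once WT 1 and WT 3 were left out, at the same size (adjusted p = 0.00407 in edgeR), and in DESeq2 with all libraries (adjusted p = 2.67e-06). Sftpc, surfactant protein C, had 0 counts in all 4 DMD-Null libraries, against 297, 258, 348 and 285 in mdx 1 to 4, so it was at least 90.2-fold lower with 3 counts per DMD-Null library as the limit. Scgb1a1, of airway cells, had 0, 0, 8 and 0 counts in DMD-Null 1 to 4 and 4.18 to 6.52 CPM in mdx. No gene of the muscle lists was called. The leading genes are given by their mean levels: Mymk had 19.9 ± 7.44 CPM in DMD-Null and 29.7 ± 5.81 CPM in mdx, Timp1 26.4 ± 7.28 CPM in DMD-Null and 18.8 ± 9.33 CPM in mdx, and Fabp3 95.8 ± 17.1 CPM in DMD-Null and 117 ± 7.998 CPM in mdx (SD, n = 4 each). Calls this few do not show that the mutants are alike, and they share the WT libraries as their controls.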

How the data were processed

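RNA of 4 DMD-Null, 4 mdx and 4 WT tibialis anterior muscles was purified with an Agilent kit to a stated minimum of integrity, and stranded TruSeq libraries were made from its poly(A) fraction, per the labels. StringTie 1.3.4, HISAT2 2.0, FastQC 0.10.1 and cutadapt 1.10 were used per the submitters' processing notes. The authors deposited whole-number read counts per gene and FPKM, which they scaled to length and library size. The sources used here do not give how reads were counted, or whether by strand, so overlapping, antisense and near-identical genes are uncertain. The notes name GRCm39, but 99.7% of the 30155 genes shared with the GRCm38 annotation share a start or end with it, and positions are read as GRCm38.

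Counts were tested with edgeR 4.0.16 in R 4.3.3 (quasi-likelihood test, TMM factors, all 12 libraries in 1 model, no covariate) for genes with FPKM of at least 1 in at least 4 libraries, and p-values were adjusted by Benjamini-Hochberg over all 11376 genes with a threshold of 0.05. The SE is the absolute log2 fold change over the square root of the F statistic. Dmd, under the filter, was fitted without it. Only replicate numbers separate the samples of a group, so p-values cover the spread between them, which may be technical, and every pair of replicates differed by more than counting noise. Scripts were tested on simulated counts. The libraries to be compared, 36 gene lists, 12 marker lists and the tests were chosen with earlier results of these data known. The rule for naming genes took from each list 2 or 3 called members that changed most, or, with none called, the one of highest level, and over all genes the 6 largest rises and 6 largest falls whose mean FPKM reached 5 in DMD-Null or WT, with no overlap between groups and a call with and without WT 1 and WT 3. Other genes are examples chosen after their values were seen. Alternatives were fits without WT 1 and WT 3, without these and DMD-Null 4, of 8 libraries, without each replicate in turn, with a replicate block, with median-of-ratios factors, library totals or GC-corrected offsets (loess, span 0.5), with DESeq2 1.42.0 and limma 3.58.1 on log2(FPKM + 1) and log2(FPKM + 0.1), and with other filters. Some results are not reported here.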

Additional observations from a re-analysis of the deposited data

Results flagged for a closer look

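In 10 cases a single library stood apart from the other 3 of their group in 217 groups of 4 libraries examined, by Dixon's ratio of the gap to the range, and chance alone flags about 1 group in 20. DMD-Null 4 held 4 of them: the syntrophin gene Sntb1 at 3.38 CPM, low for DMD-Null, the release channel Ryr1 at 2420.2 CPM, the creatine kinase gene Ckm at 22260.0 CPM and the lipase gene Lipe at 28.7 CPM, the last 3 high for DMD-Null and on the side of WT. WT 2 held 3, the chemokine gene Ccl9 at 6.80 CPM, Gbp3 at 4.84 CPM and the protease gene Napsa at 0.739 CPM, each high for WT. Anxa2 was low in WT 4 at 27.8 CPM, Ccnb2 was high in WT 1 at 0.728 CPM, and BC048679 was high in WT 3 at 38.9 CPM.

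Sftpc differed between DMD-Null and mdx, with a fitted log2 fold change of -11.05 (edgeR adjusted p = 0.0024). The fitted size has no exact meaning, because all 4 DMD-Null libraries are at 0 counts. The place of Sftpc among the tested genes rests on the mdx libraries alone.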

How the results depend on the processing

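Of 108 tested genes that the naming rule took, none changed direction under any alternative run. Without WT 1 and WT 3, 78 stayed on the same side of the threshold and 30 lost their call. Without 1 replicate at a time, 25 lost their call at least once, 21 of which also lost it without WT 1 and WT 3; the other 4 were mt-Nd3, Hsph1, Rbpj and Mup3, with highest edgeR adjusted p of 0.0586, 0.103, 0.0648 and 0.06. Over all genes, 1123 fell without WT 1 and WT 3. Leaving these and DMD-Null 4 out gave 1817 rises and 1487 falls. With the 8 libraries of DMD-Null and WT alone 771 rose and 627 fell, where fewer libraries inform the spread. A mean FPKM of at least 5 left 661 rises and 822 falls, with fewer genes tested. Settings that do not align the bulk of genes turned the balance: library totals alone gave 3313 rises and 575 falls, and limma gave 4962 and 565 on log2(FPKM + 1) and 4883 and 547 on log2(FPKM + 0.1), where the median gene moved up by 0.43, 0.36 and 0.50. Without 1 replicate at a time the calls ranged from 923 to 3204 rises and from 783 to 3200 falls. The highest counts came without WT 2 (3204 and 3200), and the lowest without DMD-Null 2 (923 and 784), DMD-Null 3 (926 and 783) and WT 3 (986 and 950). Dmd fell under every alternative, from -5.01 to -0.83, the smallest on log2(FPKM + 1). Between DMD-Null and mdx DESeq2 called 6 genes, the stricter filter and the fit without WT 1, WT 3 and DMD-Null 4 called 1 each, and leaving out 1 replicate gave 1 to 2.

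Replicate numbers are shared between groups, and deviations of same-numbered DMD-Null and WT libraries had correlations of -0.364, 0.217, -0.287 and -0.587 over genes. DMD-Null 4 correlated at 0.669 and 0.688 with WT 1 and WT 3, the other libraries of positive GC trend. Beside that split this check cannot tell whether the numbers pair libraries. A fit with the replicate block gave 1034 rises and 835 falls against WT and 0 calls between DMD-Null and mdx.

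With 4 libraries a group and 2 in the narrower WT setting, a call that is lost can reflect fewer samples as well as other values, so medians are given beside the counts. Depth is not the main limit for the genes named, but Pax7, Myf5 and most lymphocyte markers were under the FPKM filter, and no test of them is given.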

Other observations

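Some genes outside the lists were noticed only after their values were seen. Plin5, which coats lipid droplets in oxidative muscle, had 7.15, 7.29, 5.24 and 9.8 CPM in DMD-Null 1 to 4, against 46.2, 56.5, 107 and 52.7 CPM in WT 1 to 4. It fell by 3.15 (edgeR adjusted p = 3.14e-05), and its log2 fold change was -2.92 without WT 1 and WT 3. The metallothionein genes Mt1 and Mt2, whose proteins bind zinc and copper, were higher in every DMD-Null library than in any WT library. Mt2 had 50.02, 91.5, 212 and 44.97 CPM in DMD-Null 1 to 4, against 7.49, 11.1, 9.19 and 8.09 CPM in WT 1 to 4, and rose by 3.47 (edgeR adjusted p = 0.00155). Mt1 rose by 1.75 (edgeR adjusted p = 0.0128). DMD-Null 3 held the most of both.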
